A study of Homo sapiens with 6 samples.

Results

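The 10 genes described here are 9 cathepsins (CTSA, CTSB, CTSC, CTSD, CTSH, CTSL, CTSO, CTSS and CTSZ) and the asparaginyl endopeptidase legumain (LGMN), taken by gene symbol from the 60671 genes of the deposited count table. They were measured by RNA sequencing in 2 populations of MM.1S, a human multiple myeloma cell line. One is a clone in which CD38 was knocked out with CRISPR/Cas9 (CD38 KO, 3 libraries), and the other is the unedited line (WT, 3 libraries). Both carried GFP and click beetle red luciferase from a lentivirus, were kept in the same medium with no drug treatment named in the labels, and were sorted as live cells before RNA extraction. CD38 KO cells were gated as CD38-negative and WT cells as CD38-positive, so gate and genotype cannot be told apart. The CD38 KO libraries come from 1 clone, and differences from WT can include whatever else distinguishes that clone from the WT population. The labels call the libraries biological replicates of the sorted populations without naming separate cultures, so p-values measure the spread between these samples, which may be technical. The 10 genes were chosen by symbol with their counts and fold changes between CD38 KO and WT in these same libraries known, and their differences between the groups are therefore given as a description. Their calls in the fit across all genes are counted beside the share of all genes called, and support nothing.

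Cathepsins are the main proteases of the lysosome. Most are cysteine proteases (B, C, F, H, K, L, O, S, V, W and Z), cathepsins D and E are aspartic proteases, and cathepsins A and G are serine enzymes. They are made as inactive proenzymes in the endoplasmic reticulum, receive a mannose 6-phosphate tag in the Golgi that directs them to endosomes and lysosomes, and are activated there at acid pH. Legumain cuts after asparagine and trims several cathepsins from the single-chain to the double-chain form, while cystatins and some serpins inhibit the enzymes that escape. In B-lineage cells they degrade endocytosed antigen and the invariant chain of class II molecules, and in secretory plasma cells they serve the turnover of proteins by autophagy.

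The libraries held 61515519 to 65709440 counts in CD38 KO and 63606445 to 72335496 in WT. Levels are given as CPM, the count divided by the TMM-scaled library size in units of 1e6 counts. CD38 itself had 51, 80 and 48 counts in CD38 KO, against 3148, 2678 and 2545 counts in WT. Of 10 plasma cell markers, 9 averaged at least 1 CPM in a group, the exception being CD27, and their summed level was 9144 to 9179 CPM in CD38 KO and 7182 to 7185 CPM in WT. The list went both ways, with 6 markers called higher and 2 lower, MZB1 at 85.7% and SLAMF7 at 77.2% of WT. Macrophages are rich in cathepsins. The summed level of 10 monocyte and macrophage markers was 1.29 to 1.78 CPM in CD38 KO and 2.45 to 3.17 CPM in WT, MARCO had 0 counts in every library and CD14 had at most 4. A single marker of this list averaged 1 CPM or more in either group, ITGAM, which was lower in CD38 KO. The summed level of 8 T and NK cell markers was 6.46 to 6.94 CPM in CD38 KO and 2.68 to 2.92 CPM in WT, with CD3E the one called higher, and that of 7 stromal markers was 5.38 to 6.41 CPM and 3.52 to 4.57 CPM in CD38 KO and WT, most of it PDGFRB, also called higher. The part of ITGAM-, CD3E- or PDGFRB-expressing cells in the results was not tested.

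In the CD38 KO clone, 8 of the 10 genes stood lower than in WT in every library and 2 stood higher (CTSC and CTSH), with no overlap between the groups for any of them. Among all 20120 tested genes the groups did not overlap for 52.5%, with CD38 KO lower for 25.6% and higher for 26.9%. The differences ranged from no CTSL count in any CD38 KO library, through a level of 25.4% of WT for CTSZ, to 94.6% for CTSO. By the fit across all genes, 7 of the 10 were called lower and 2 higher at an edgeR adjusted p under 0.05, against 44.4% of all tested genes called, 21.6% lower and 22.8% higher. The median log2 fold change of the 10 was -0.50, beside 0.0002 over all tested genes. Nothing is read from these values, because the choice of genes used this contrast. All 10 passed the filter on low counts, CTSL through its WT libraries alone.

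**Figure D1:**
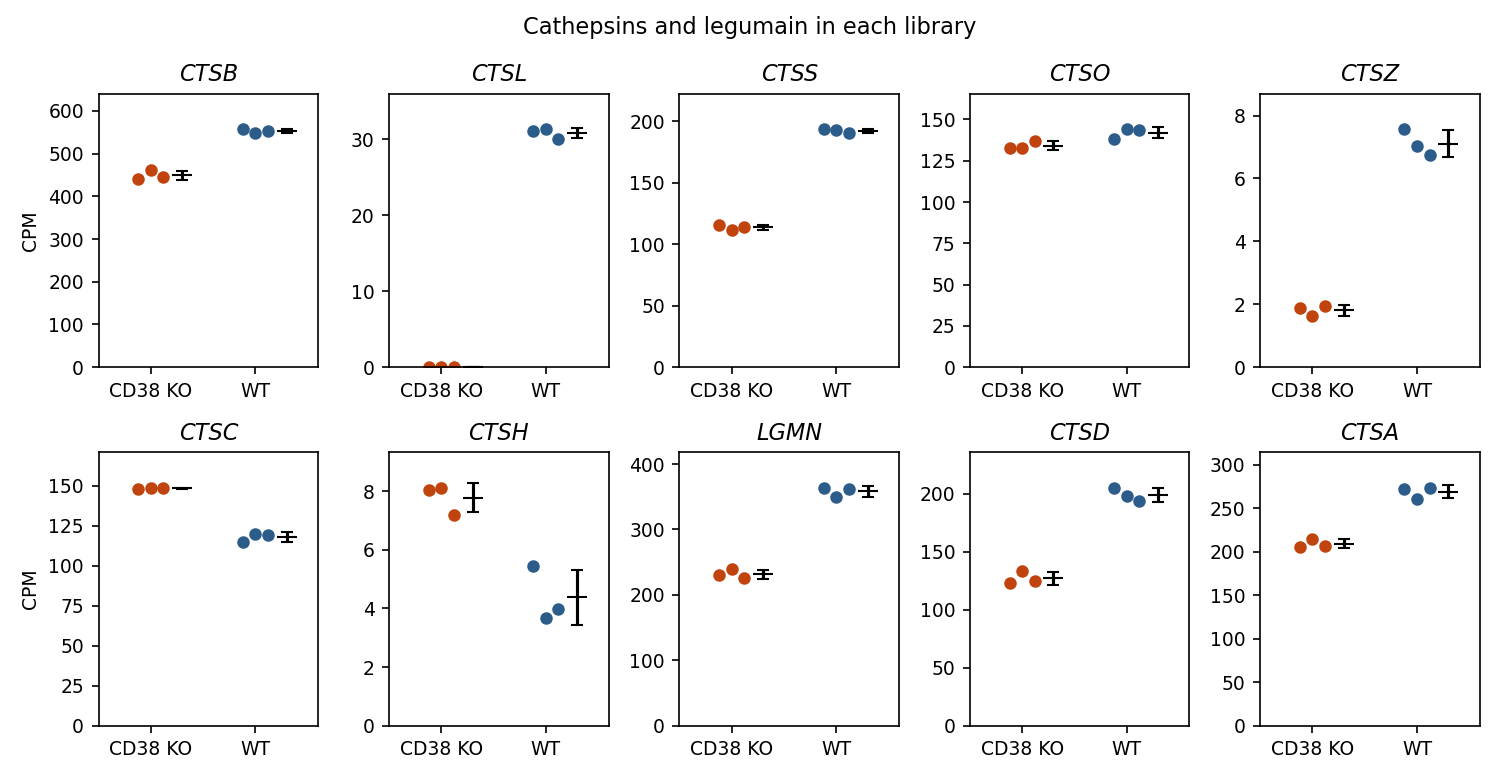
CPM of each gene (vertical axis, from 0, with its own scale) in the 3 CD38 KO and the 3 WT libraries; points are libraries, and the dash with its bar is the mean ± SD. CTSL lay at 0 in every CD38 KO library, CTSC and CTSH were higher in CD38 KO, and the other genes were lower.

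CTSL, a cysteine endopeptidase that degrades a broad range of lysosomal proteins, differed most. It had 0 counts in each of the 3 CD38 KO libraries, against 2297, 2075 and 1976 counts in the WT libraries. On the CPM scale WT stood at 31.0, 31.3 and 30.1. With a floor of 3 counts in each CD38 KO library, on average 0.0486 CPM, CTSL was at least 634-fold lower in CD38 KO than in WT. The bound covers counting error only, as reads counted without molecular identifiers may stem from the same molecule. In bulk RNA, fewer cells with a transcript and less transcript per cell cannot be told apart, here and for the genes that follow.

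CTSL lies on chromosome 9 (ENSG00000135047, 87725519 to 87731393 in GENCODE 29, build GRCh38, plus strand), near its pseudogenes CTSL3P and CTSLP8. The promoter is shown because CTSL is the one gene of the 10 with no count in CD38 KO. Its RefSeq start lies inside the GENCODE 29 gene, as do the bases shown. The 250 bases before the RefSeq start (GRCh38.p14, chr9:87725869-87726118, plus strand) follow 5′ to 3′, with CCAAT and GGGCGG (the GC box) on either strand in capitals.
CTSL: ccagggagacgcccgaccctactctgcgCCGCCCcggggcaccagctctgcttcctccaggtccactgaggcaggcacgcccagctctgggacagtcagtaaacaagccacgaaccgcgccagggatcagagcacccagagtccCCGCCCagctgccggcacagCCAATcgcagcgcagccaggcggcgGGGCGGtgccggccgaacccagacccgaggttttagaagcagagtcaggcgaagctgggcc

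The nearest tested protein-coding genes on both sides were expressed in CD38 KO. Upstream, DAPK1, a calmodulin-dependent kinase of cell death signalling, averaged 101.8 ± 7.39 CPM in CD38 KO and 107.8 ± 9.29 CPM in WT (SD, n = 3; edgeR adjusted p = 0.320). Downstream, SPIN1, a histone methyl-lysine reader, averaged 41.3 ± 0.897 CPM in CD38 KO and 42.1 ± 1.62 CPM in WT (SD, n = 3; edgeR adjusted p = 0.748). Neither was past the threshold. Of the 5 tested protein-coding neighbours on each side, 5 were not past the threshold (TUT7, GAS1, DAPK1, SPIN1 and GADD45G), 3 were higher in CD38 KO (CKS2, SECISBP2 and SEMA4D) and 2 were lower (C9orf153 and ISCA1), by the edgeR test. CKS2, a cofactor of cyclin-dependent kinases, had a log2 fold change of 1.20 and ISCA1, an iron-sulfur cluster protein, one of -0.48. The call of SECISBP2 was lost with library size alone (edgeR adjusted p = 0.204) and without WT replicate 3 (0.0744). DAPK1 was called lower with library size alone (0.0337) and without WT replicate 2 (0.0355), and TUT7 with library size alone (0.0294) and without CD38 KO replicate 1 (0.0123).

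Between CTSL and SPIN1 the table holds 24 rows, with 290 counts in CD38 KO and 433 in WT over all of them. The first 10 of them, which start within 138.6 kb of CTSL and include CTSL3P and CTSLP8, together had 0 counts in CD38 KO and 29 in WT, spread over 6 rows. SPATA31E1, the next row, had 2, 1 and 0 counts in CD38 KO, against 1, 1 and 0 in WT. That stretch was singled out after its values were seen. With 29 WT counts in all, the stretch cannot be described further at this depth.

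**Figure D2:**
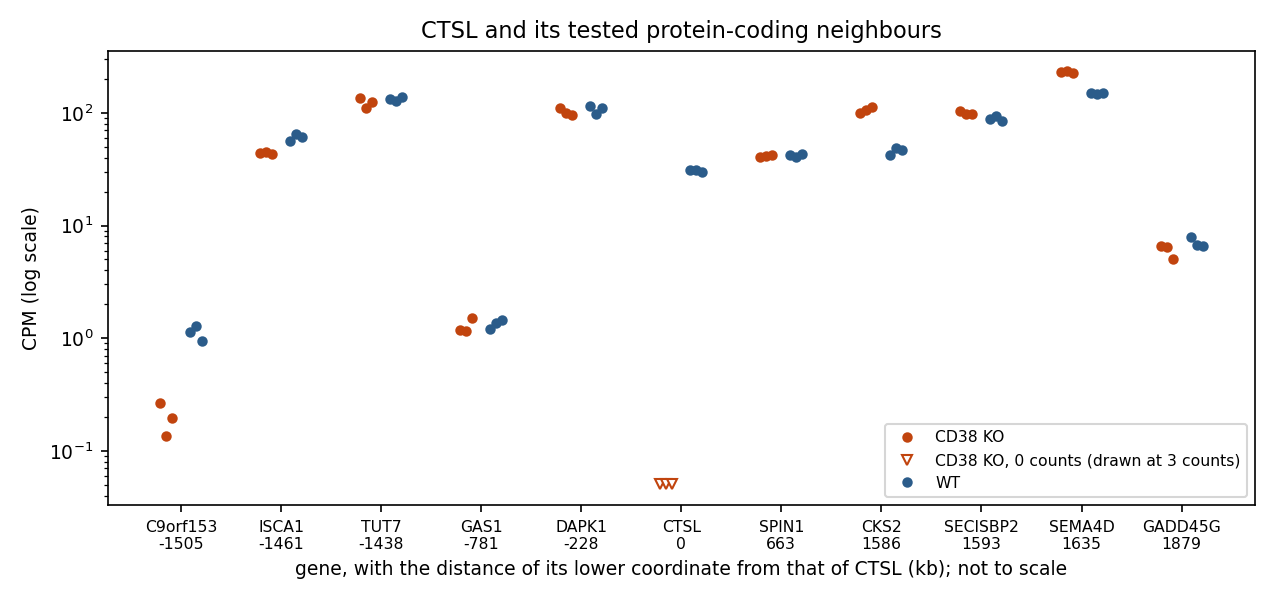
CPM on a log scale for CTSL and the 5 nearest tested protein-coding genes on each side, ordered along chromosome 9 but not drawn to scale; each point is a library and open triangles are libraries with 0 counts, drawn at 3 counts. CTSL lay at 0 in the CD38 KO libraries between DAPK1 and SPIN1, whose levels overlapped between the groups.

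Reads of CTSL could be shared with its pseudogenes and with its paralogue CTSV, and such sharing was not tested. CTSV had 672, 653 and 604 counts in CD38 KO and 285, 371 and 350 counts in WT. The pseudogenes CTSLP1, CTSLP2, CTSLP3, CTSLP4 and CTSLP6 had 0 counts in every library. When CTSL was summed with CTSV and all CTSL pseudogenes, a setting chosen after seeing the data, the sum had a log2 fold change of -1.78.

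Over the 6 libraries, the tested protein-coding genes nearest to CTSL by Euclidean distance of log2 CPM were DDIT4L (distance 1.35), MGST1 (1.94), PAXX (2.41), RAB32 (3.02) and SPIN3 (3.12). DDIT4L and RAB32 also had 0 counts in every CD38 KO library, while MGST1 had 4, 2 and 0. The WT means were 17.98 CPM for DDIT4L, 28.9 CPM for MGST1 and 9.20 CPM for RAB32. Genes at 0 in 1 group resemble each other by this measure whatever they encode.

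CTSZ, a cysteine carboxypeptidase also called cathepsin X, had the next largest difference. It had 1.88, 1.61 and 1.94 CPM in the CD38 KO libraries, against 7.57, 7.03 and 6.73 CPM in the WT libraries. The raw counts were 120, 96 and 120 in CD38 KO and 560, 466 and 442 in WT, so CTSZ was among the weakly expressed members in both groups. Its log2 fold change was -1.97 ± 0.15 (SE, n = 3 each). CTSZ lies on chromosome 20 (58995185 to 59007247).

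CTSS, the cysteine protease that makes the final cuts in the invariant chain in B cells, had 116, 112 and 114 CPM in the CD38 KO libraries, against 194, 193 and 190.4 CPM in the WT libraries. The clone thus held 59.2% of the WT level (log2 fold change -0.76 ± 0.04, SE). Its gene is on chromosome 1 (150730196 to 150765957), where its relative CTSK is also found.

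CTSB, an endopeptidase that can also act as a dipeptidyl carboxypeptidase, had the highest counts of the 10 genes. It stood at 441, 461 and 446 CPM in the CD38 KO libraries, against 557, 549 and 552 CPM in the WT libraries. The difference was modest, with 81.3% of the WT level left in CD38 KO (log2 fold change -0.30 ± 0.04, SE). CTSB lies on chromosome 8 (11842524 to 11869448).

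CTSO, a widely expressed cysteine cathepsin whose substrates are little known, differed least. It had 133, 133 and 137 CPM in the CD38 KO libraries, against 138, 144 and 143 CPM in the WT libraries. The groups came within about 1 CPM of each other, and the log2 fold change was -0.08 ± 0.04 (SE). CTSO is on chromosome 4 (155924118 to 155953917).

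CTSC and CTSH stood higher in CD38 KO. They are exopeptidases, as are CTSZ and CTSA, which stood lower. CTSC, or dipeptidyl peptidase 1, removes dipeptides from the amino terminus and activates the serine proteases of cytotoxic and neutrophil granules. Its level was 148, 149 and 148 CPM in the CD38 KO libraries, against 114, 119.7 and 119 CPM in the WT libraries (log2 fold change 0.33 ± 0.04, SE). CTSH, an aminopeptidase, had 8.02, 8.12 and 7.20 CPM in the CD38 KO libraries, against 5.44, 3.68 and 3.99 CPM in the WT libraries. WT replicate 1 lay well above the other WT libraries for CTSH but below all CD38 KO libraries. The log2 fold change of CTSH was 0.83 ± 0.14 (SE), and between 0.72 and 1.02 over the alternatives. CTSC is on chromosome 11 (88293592 to 88337787) and CTSH on chromosome 15 (78921058 to 78949574).

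Legumain, which processes other members of the set, had 229.8, 239 and 226 CPM in the CD38 KO libraries, against 364, 349 and 361 CPM in the WT libraries. The CD38 KO level was 64.6% of WT (log2 fold change -0.63 ± 0.04, SE). Its processed pseudogene LGMNP1, with which reads may be shared, had 86, 107 and 107 counts in CD38 KO and 292, 260 and 179 counts in WT, and summing them left the log2 fold change at -0.63. LGMN is on chromosome 14 (92703807 to 92748702).

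CTSD and CTSA, which are not cysteine proteases, were also lower. CTSD, the aspartic endopeptidase of lysosomes, had 123, 133 and 125 CPM in the CD38 KO libraries, against 205, 198 and 193 CPM in the WT libraries. CTSA, a serine carboxypeptidase that also shields the lysosomal enzymes NEU1 and GLB1 in a complex, had 206, 215 and 207 CPM in the CD38 KO libraries, against 273, 260.5 and 274 CPM in the WT libraries. The levels left in CD38 KO were 63.9% of WT for CTSD and 77.8% for CTSA. CTSA overlaps PLTP on the opposite strand, and PLTP itself had 698, 755 and 658 counts in CD38 KO and 1257, 1107 and 1100 in WT. No source used here gives the strand setting of the counting, so reads of CTSA and PLTP in their shared stretch cannot be told apart. CTSD lies on chromosome 11 (1752752 to 1764573) and CTSA on chromosome 20 (45890144 to 45898820).

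The promoters of CTSA and CTSD are shown because both contain CACGTG, the core of the E-box that MiT-TFE factors, the regulators of lysosomal genes, bind. The RefSeq table held promoters of 6 members (CTSA, CTSC, CTSD, CTSH, CTSL and CTSZ) and not of CTSB, CTSO, CTSS and LGMN. The 250 bases before the RefSeq start (GRCh38.p14) are chr20:45891085-45891334 on the plus strand for CTSA and chr11:1763928-1764177 on the minus strand for CTSD, printed 5′ to 3′ along the gene with CACGTG in capitals.
CTSA: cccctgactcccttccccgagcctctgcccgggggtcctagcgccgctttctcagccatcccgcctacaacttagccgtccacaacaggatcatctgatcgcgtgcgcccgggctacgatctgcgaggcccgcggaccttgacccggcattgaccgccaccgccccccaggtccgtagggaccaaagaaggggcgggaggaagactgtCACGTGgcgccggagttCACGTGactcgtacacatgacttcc
CTSD: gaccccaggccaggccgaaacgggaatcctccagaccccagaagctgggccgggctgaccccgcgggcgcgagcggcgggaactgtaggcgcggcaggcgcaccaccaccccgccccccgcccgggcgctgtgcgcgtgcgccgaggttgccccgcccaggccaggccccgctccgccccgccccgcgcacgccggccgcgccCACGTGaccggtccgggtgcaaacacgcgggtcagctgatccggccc

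Motifs were searched on both strands of windows from 250 bases before to 50 after the start. CACGTG was in 2 of the 6 member promoters and in 7.43% of all 27305 promoters. It begins 42 and 25 bases before the start in CTSA and 47 bases before it in CTSD. CCAAT was in 2 of the 6 (CTSC and CTSL) and in 35.7% of all promoters, and GGGCGG in 6 of the 6 and in 44.6% of all promoters. These are matches of letters in the reference sequence and do not show binding.

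Compared per length, as CPM per kb of the longest APPRIS principal transcript, the family was led by CTSB and LGMN in both groups. In CD38 KO, CTSB stood at 115.9 ± 2.73 CPM per kb and LGMN at 109.5 ± 3.23 CPM per kb (SD, n = 3), with the highest LGMN library at 113.0 just below the lowest CTSB library at 113.8. In WT, LGMN led at 169.4 ± 3.71 CPM per kb, clear of CTSB at 142.6 ± 1.07 CPM per kb (SD, n = 3). CTSA followed in both groups, at 97.3 ± 2.32 CPM per kb in CD38 KO and 125.2 ± 3.42 CPM per kb in WT. CTSC came next in CD38 KO, at 77.2 ± 0.140 CPM per kb, ahead of CTSD at 59.9 ± 2.61 CPM per kb, while in WT CTSD at 93.7 ± 2.80 CPM per kb stood ahead of CTSC at 61.3 ± 1.505 CPM per kb.

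The lower part of the order began with CTSO and CTSS. In CD38 KO they were apart, at 45.4 ± 0.884 and 27.7 ± 0.504 CPM per kb for CTSO and CTSS, while in WT they were neighbours whose libraries overlapped, at 48.0 ± 1.11 and 46.8 ± 0.405 CPM per kb (SD, n = 3). CTSH was at 3.55 ± 0.230 CPM per kb in CD38 KO and 1.996 ± 0.430 CPM per kb in WT, and CTSZ at 1.21 ± 0.115 CPM per kb in CD38 KO and 4.76 ± 0.283 CPM per kb in WT. The order of CTSH and CTSZ was therefore opposite in the groups. With the combined exons of all isoforms as the length, CTSC stood at rank 7 in CD38 KO and rank 8 in WT, so ranks between genes depend on the transcript that is counted.

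**Figure D3:**
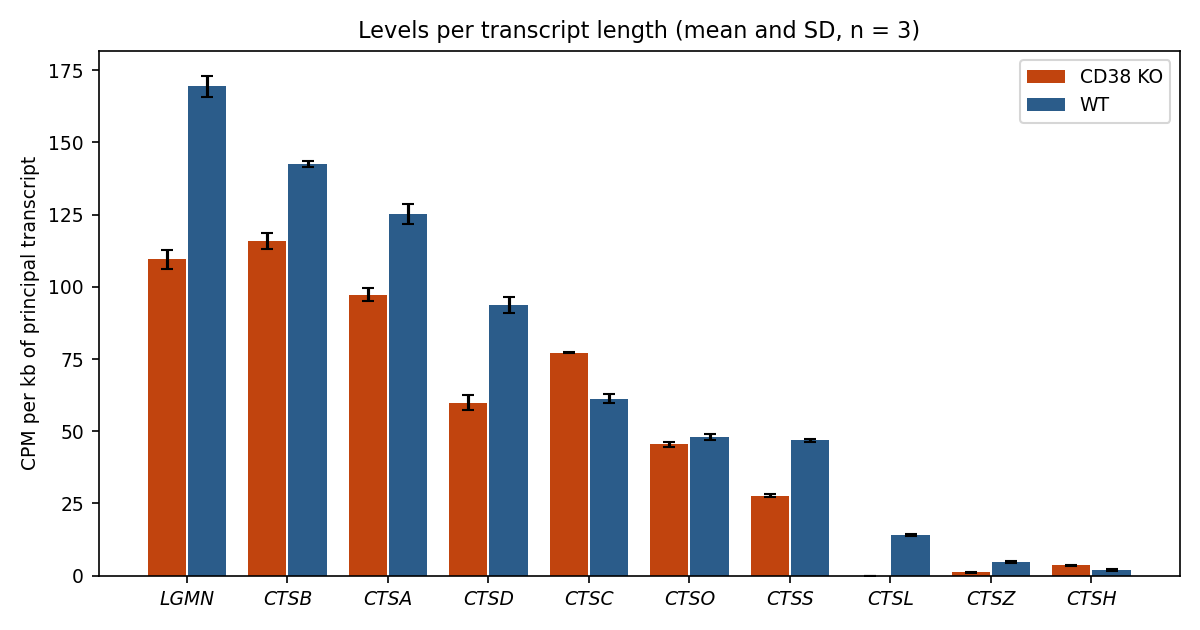
Mean level in CPM per kb of principal transcript (bars, from 0) with the SD of 3 libraries, CD38 KO beside WT for each gene, ordered by the WT level. LGMN led in WT at 169.4 CPM per kb and CTSB in CD38 KO at 115.9 CPM per kb, and CTSL had no bar in CD38 KO.

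Together the 10 genes took 0.137%, 0.140% and 0.137% of all counts in the CD38 KO libraries, against 0.193%, 0.193% and 0.191% in the WT libraries. Their summed level was 1423 ± 24.4 CPM in CD38 KO and 1873 ± 17.0 CPM in WT (SD, n = 3), so the clone held 76.0% of the WT sum. Within that sum, counted per kb, the share of CTSC was 14.4% ± 0.236 in CD38 KO and 8.66% ± 0.291 in WT, while that of LGMN was 20.4% ± 0.292 in CD38 KO and 23.9% ± 0.290 in WT (SD, n = 3). CTSA and CTSB kept similar shares, at 18.1% and 21.6% in CD38 KO and 17.7% and 20.2% in WT. All these shares use the principal transcript. With the combined exons of all isoforms as the length, CTSC averaged 12.99 CPM per kb in CD38 KO and 10.3 CPM per kb in WT. The shares therefore depend on the length used.

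Of the 7 family members outside the set, 4 were tested, and these 4 were called higher in CD38 KO, beside 22.8% of all tested genes. Nothing is read from that count, since the line between the 10 genes and the others was drawn with these data known. CTSF, a cysteine endopeptidase, averaged 11.2 ± 0.194 CPM in CD38 KO and 3.63 ± 0.317 CPM in WT (SD, n = 3). CTSG, a serine protease of neutrophil and monocyte granules, was at 108, 105 and 100 counts in CD38 KO, against 1, 0 and 0 in the WT libraries. The ratio of its summed counts, scaled for library size, was 347.7 with a 95% counting interval of 61.96 to 13778. That interval covers counting error only, while libraries within a group differed by more than sampling noise. CTSG passed the filter on low counts through its CD38 KO libraries alone. CTSV averaged 10.4 ± 0.617 CPM in CD38 KO and 4.93 ± 0.942 CPM in WT, and CTSK, the collagen-degrading protease of osteoclasts, 2.55 ± 0.182 CPM in CD38 KO and 1.59 ± 0.285 CPM in WT (SD, n = 3). CTSK was no longer past the threshold without WT replicate 2. CTSE, CTSW and NAPSA had too few counts to be tested, with 27 counts of CTSW over the CD38 KO libraries and 30 over the WT libraries.

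Few of the inhibitors had enough counts to be tested. This list and those below were chosen with earlier results of these data known, and nothing is read from their counts of genes called. Of 16 cystatins, serpins and other inhibitors, 5 were tested, of which 3 fell, 1 rose and 1 was not past the threshold (KNG1, which averaged 0.176 CPM in CD38 KO and 0.152 CPM in WT), beside 21.6% lower and 22.8% higher among all tested genes. SERPINB6, an intracellular serpin that inhibits CTSG, had the largest difference, at 13.0 ± 1.48 CPM in CD38 KO and 77.8 ± 3.57 CPM in WT (SD, n = 3; log2 fold change -2.59 ± 0.07, SE; edgeR adjusted p = 2.01e-16). SERPINB1, which inhibits CTSG and neutrophil elastase, averaged 6.37 ± 0.566 CPM in CD38 KO and 15.5 ± 0.706 CPM in WT (SD, n = 3; edgeR adjusted p = 8.30e-10). Among the cystatins, the cytosolic CSTB averaged 322 ± 26.3 CPM in CD38 KO and 443 ± 22.5 CPM in WT (edgeR adjusted p = 3.53e-06). The secreted CST3 was higher, at 250.4 ± 14.3 CPM in CD38 KO and 220.3 ± 8.97 CPM in WT (edgeR adjusted p = 0.00225), a call that was lost with library size alone (0.0596).

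All 3 genes for the enzymes that build the mannose 6-phosphate tag fell. GNPTAB, which encodes the alpha and beta subunits of the phosphotransferase, averaged 123.6 ± 3.49 CPM in CD38 KO and 262 ± 10.2 CPM in WT (SD, n = 3; log2 fold change -1.08 ± 0.04, SE; edgeR adjusted p = 1.51e-14). Its gamma subunit GNPTG and NAGPA, which uncovers the tag, had log2 fold changes of -0.53 (edgeR adjusted p = 2.87e-09) and -1.27 (1.73e-11). The receptors did not follow them. M6PR averaged 228 ± 10.5 CPM in CD38 KO and 226 ± 5.95 CPM in WT (edgeR adjusted p = 0.822), and IGF2R rose slightly, with a log2 fold change of 0.17 (edgeR adjusted p = 0.00280), a call lost with library size alone (0.0911). These receptors were named after their values were seen. SORL1, a sorting receptor that carries cargo between Golgi and endosomes, averaged 73.1 ± 3.48 CPM in CD38 KO and 18.4 ± 1.99 CPM in WT (log2 fold change 1.99 ± 0.07, SE; edgeR adjusted p = 7.39e-15). Over the whole list of 17 sorting genes, 4 rose (23.5%, beside 22.8% of all tested genes), 6 fell (35.3%, beside 21.6%) and 7 were not past the threshold, with a median log2 fold change of 0.01 beside 0.0002 over all tested genes.

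A further list held 10 lysosomal genes: peptidases, partners of CTSA, and others that are neither, such as PPT1, PSAP and IFI30. Of these 10, 7 fell, 2 rose and 1 was not past the threshold, beside 21.6% lower and 22.8% higher among all tested genes. Their median log2 fold change was -0.21. Nothing is read from these counts, since the list was chosen with earlier results of these data known. TPP1, a tripeptidyl peptidase, averaged 167 ± 3.28 CPM in CD38 KO and 334 ± 3.15 CPM in WT (SD, n = 3; edgeR adjusted p = 9.64e-15). PPT1, a thioesterase that removes palmitate, and PSAP, the precursor of the saposins, had log2 fold changes of -0.30 and -0.21 (edgeR adjusted p = 1.34e-06 and 1.57e-05). GLB1, the beta-galactosidase held in a complex with CTSA, rose, at 198 ± 5.84 CPM in CD38 KO and 158 ± 4.19 CPM in WT (edgeR adjusted p = 1.12e-06). The other that rose, IFI30, the thiol reductase of antigen processing, had 27, 55 and 37 counts in CD38 KO and 26, 18 and 20 in WT (edgeR adjusted p = 0.0319). It was named after its values were seen, and its call was lost under 8 alternatives, among them without CD38 KO replicate 2 (0.202).

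Of 21 tested genes of the V-ATPase, the proton pump that acidifies the lysosome, 8 fell (38.1%, beside 21.6% of all tested genes), 2 rose (9.52%, beside 22.8%) and 11 were not past the threshold. The median log2 fold change was -0.12, and the share called in either direction lay near the 44.4% of all tested genes. ATP6V0A1, a membrane-domain subunit, rose by a log2 fold change of 0.61 (edgeR adjusted p = 2.53e-11). ATP6V1D, ATP6V1B2 and ATP6V0E1 had log2 fold changes of -0.44, -0.27 and -0.30 (edgeR adjusted p = 2.45e-07, 1.16e-05 and 2.11e-05). The number that fell was 14 with library size alone.

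Of 11 regulators of lysosomal genes, 4 rose (36.4%, beside 22.8% of all tested genes), 3 fell (27.3%, beside 21.6%) and 4 were not past the threshold, with a median log2 fold change of 0.06. MITF averaged 12.9 ± 0.422 CPM in CD38 KO and 27.98 ± 0.872 CPM in WT (SD, n = 3; edgeR adjusted p = 8.13e-11), and its relative TFEC 3.36 ± 0.306 CPM in CD38 KO and 1.23 ± 0.236 CPM in WT (edgeR adjusted p = 3.94e-06). TFEB, named after its values were seen, was not past the threshold, at 28.5, 27.9 and 27.5 CPM in CD38 KO and 28.6, 26.9 and 27.4 CPM in WT (edgeR adjusted p = 0.848). TFE3, also named after its values were seen, stood above TFEB, MITF and TFEC in level. TFE3 rose, at 80.3 ± 2.80 CPM in CD38 KO and 64.8 ± 3.93 CPM in WT (SD, n = 3; edgeR adjusted p = 5.85e-05). FNIP2, a partner of folliculin in the control of these factors, rose by a log2 fold change of 1.19 (edgeR adjusted p = 3.11e-13). MCOLN1, the calcium channel of lysosomes, fell, with a log2 fold change of -0.62 (edgeR adjusted p = 3.74e-09).

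The last list holds genes of class II presentation, among them the invariant chain, and of endosomal Toll-like receptors, which depend on endosomal proteolysis. Of 15 tested, 6 rose (40.0%, beside 22.8% of all tested genes), 7 fell (46.7%, beside 21.6%) and 2 were not past the threshold, with a median log2 fold change of 0.06. CIITA, the activator of class II genes, averaged 15.05 ± 1.44 CPM in CD38 KO and 36.9 ± 3.05 CPM in WT (SD, n = 3; edgeR adjusted p = 5.17e-11), and the peptide-loading genes HLA-DOB and HLA-DMA had log2 fold changes of -1.52 and -0.59 (edgeR adjusted p = 3.32e-10 and 6.88e-09). HLA-DQB1 rose, with a log2 fold change of 1.42 (edgeR adjusted p = 1.97e-10), and reads of HLA genes may be shared between them. CD74, the invariant chain and a substrate of CTSS, was chosen after its values were seen and averaged 6223 ± 187 CPM in CD38 KO and 5812 ± 176 CPM in WT (SD, n = 3; edgeR adjusted p = 0.0218), a call lost with library size alone (0.709), without WT replicate 2 (0.0913) and without WT replicate 3 (0.0880), among others. Among the granule serine proteases that CTSC activates, CTSG was tested and is described above with the cathepsins. None of 8 others (5 granzymes, ELANE, PRTN3 and the inactive homologue AZU1) had enough counts to be tested, each with at most 13 counts in any library.

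**Figure D4:**
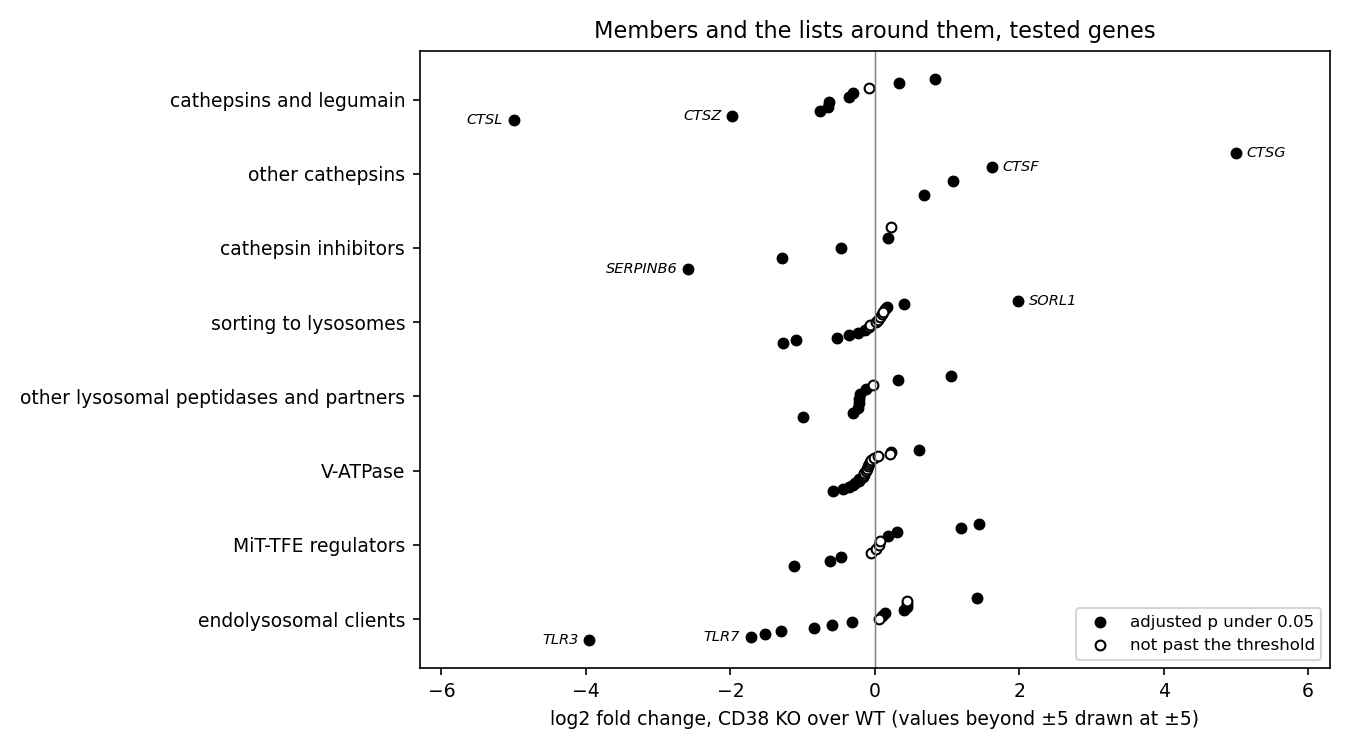
Log2 fold change of CD38 KO over WT (horizontal axis) for every tested gene of the set and of the surrounding lists (rows); filled points have an edgeR adjusted p under 0.05 and open points do not, and values beyond 5 in size are drawn at 5. Within the set CTSL and CTSZ lie farthest to the left, while SERPINB6 and SORL1 stand out among inhibitors and sorting genes.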

How the data were processed

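The authors deposited raw read counts per gene in 1 table with 1 column per library, and per the submitters' processing notes STAR 2.7.9a, Partek and DESeq2 were used, without the step each served. The sources used here do not name the genome build, annotation, counting program or strand setting. The table's 60871 lines include 200 that repeat an Ensembl identifier with the same counts, and each identifier was kept once. Positions and transcript lengths came from GENCODE 29 (GRCh38), which may not be the annotation counted with.

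The comparison of CD38 KO with WT used edgeR 4.0.16 in R 4.3.3 (quasi-likelihood test, TMM, filterByExpr, robust dispersions, no covariate), with Benjamini-Hochberg adjustment over 20120 tested genes and a threshold of 0.05. CPM used TMM-scaled library sizes, and log2 CPM a prior count of 2. A count of 0 allows up to 3 counts, 0.0405 to 0.0504 CPM per library. The test was tried first on simulated counts with far fewer changed genes than called here, so that trial does not vouch for these calls.

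The genes and lists were chosen with earlier results of these data known. Named are all 10 members, the other cathepsins, near-identical copies, CTSL's 5 tested neighbours on each side and 5 most similar genes, CD38, and up to 4 genes with the smallest adjusted p per list; CTSLP rows and LGMNP1 are copies, and others were named after their values were seen. Alternatives were RLE factors, library size alone, no filter, 1 CPM in 3 libraries, DESeq2 1.42.0, limma-voom (limma 3.58.1), the replicate number as a block and each library left out. The labels call the libraries biological replicates, and pairs within a group differed by more than sampling noise (chi-square per degree of freedom at least 5.49).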

Additional observations from a re-analysis of the deposited data

How the results depend on the processing

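Member log2 fold changes kept their sign in all settings. With library size alone (no composition factors) 8 members were called lower against 7, as CTSO passed the threshold there (log2 fold change -0.16). Without composition factors the median log2 fold change of all genes was -0.08, 3632 genes were called higher and 5570 lower (against 4592 and 4342), the V-ATPase list had 14 lower genes, the sorting list 2 higher and the inhibitor list 0 higher. The list of other lysosomal genes with TPP1 and GLB1 had 1 higher gene instead of 2 with no filter and with limma-voom. The same held with 1 CPM in 3 libraries and with the replicate block. When a library was left out it had 1 to 2, and GLB1 was called in each of these settings. With the replicate block 8918 genes were called in all, against 8934. Same-numbered libraries had deviations correlated at 0.0337, -0.00800 and -0.0207, within the -0.0236 to 0.0351 of differently numbered ones. With 3 libraries per group this cannot show whether same-numbered libraries were handled together. Genes not past the threshold changed sign: GAS1 was -0.19 to 0.00567 as single libraries were omitted (0.00201 without CD38 KO replicate 1, 0.00366 without WT replicate 3), M6PR was -0.0695 with library size alone, -0.00225 with no filter and -0.0236 to 0.0473 as single libraries were omitted, and TFEB was -0.0647 with library size alone and -0.00293 to 0.0402 as single libraries were omitted. The fitted log2 fold change of CTSL, between -14.01 and -11.89, depends on the prior count and is no estimate of size. The cause of these shifts was not tested.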

Other observations

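CTSL was 1 of 6 protein-coding genes with 0 counts in every CD38 KO library and a WT mean of at least 1 CPM. The others were DDIT4L, the small GTPase RAB32, the growth factor receptor FGFR2, the T cell signalling gene THEMIS and the phosphatase DUPD1. Genes of any kind with this pattern numbered 9, beside 13583 tested genes with a WT mean of at least 1 CPM. Among the 9, the long noncoding RNA LINC02238 stood above CTSL, at 161 CPM in WT. CTSL had the highest WT level of the 6, at 30.8 ± 0.645 CPM, ahead of DDIT4L at 17.98 ± 0.920 CPM (SD, n = 3). The lowest was THEMIS, at 1.19 ± 0.312 CPM in WT. CTSL was the one of the 6 on chromosome 9, while RAB32 and THEMIS are on chromosome 6, FGFR2 and DUPD1 on chromosome 10 and DDIT4L on chromosome 4. PAXX, also on chromosome 9, had 0, 2 and 0 counts in CD38 KO, against 966, 882 and 818 in WT.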
